A study of Homo sapiens with 6 samples.

Results

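The genes described here carry iron into the cell, store it, release it from storage or export it, or sense and free it: FTL, FTH1, NCOA4, TFRC, SLC11A2, SLC39A8, SLC39A14, SLC40A1, IREB2 and HMOX1. They were taken by gene name, and all 10 were found among the 50868 genes of the table. Cells of the human colorectal cancer line HCT116 received pcYY2, a plasmid that overexpresses the zinc-finger transcription factor YY2, or pcCon, the empty pcDNA3.1(+) plasmid, and polyadenylated RNA of 3 samples for each plasmid was sequenced. Transfection was transient, and the general overexpression protocol of the study collected cells about a day later. The labels do not say whether the 3 samples of a plasmid were separate cultures, so the p-values measure only the spread between these samples.

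A cell takes up transferrin-bound iron through the transferrin receptor and free iron through divalent metal transporters, keeps spare iron inside the ferritin shell built of heavy and light chains, and exports iron through ferroportin. Free ferrous iron feeds the lipid peroxidation of ferroptosis, the iron-dependent form of cell death that the study addressed. Much of this system is set after transcription: iron regulatory proteins bind hairpins called iron-responsive elements, holding back translation where the hairpin lies in a 5′ untranslated region (UTR) and protecting the mRNA from decay where it lies in the 3′ UTR. RNA-Seq counts read the amount of mRNA and not how much of it is translated.

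The hairpins with the classical loop are shown because iron regulatory proteins bind this kind of element. They were searched for in the coding transcripts of GENCODE 44 (GRCh38) as C, 5 bases, the 6-base loop CAGTGN, and 5 bases that pair with the first 5, with G-U pairs allowed. Each line gives 29 bases of the mRNA strand, written as DNA from 5′ to 3′, with the loop in capitals.
FTL, 5′ UTR, plus strand, chr19:48965335-48965363: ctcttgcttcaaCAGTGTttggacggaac
FTH1, 5′ UTR, minus strand, chr11:61967574-61967602: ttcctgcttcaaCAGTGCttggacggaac
SLC40A1, 5′ UTR, minus strand, chr2:189580661-189580689: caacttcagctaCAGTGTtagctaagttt
TFRC, 3′ UTR, minus strand, chr3:196050979-196051007: aattatcggaagCAGTGCcttccataatt
TFRC, 3′ UTR, minus strand, chr3:196050575-196050603: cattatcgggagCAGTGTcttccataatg
TFRC, 3′ UTR, minus strand, chr3:196050510-196050538: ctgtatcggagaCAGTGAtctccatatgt
TFRC, 3′ UTR, minus strand, chr3:196050463-196050491: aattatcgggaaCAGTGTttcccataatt
The SLC40A1 hairpin was in 1 of the 5 coding transcripts of the gene, its reference transcript. The FTH1 hairpin was in 7 of 8 coding transcripts and each TFRC hairpin in 10 of 11. The reference transcripts of the other 6 genes held no match to this rule. Among 19061 coding transcripts, 1 per gene, the same rule matched the 5′ UTR of 0.0997% and the 3′ UTR of 0.635%. A match is a description of letters, and a hairpin with another bulge or loop is missed: EPAS1 and SLC11A2 mRNAs, known for iron-responsive elements, held no match.

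YY2 itself checked the labels: it ran from 1.73 to 2.52 FPKM in pcCon and from 11.0 to 11.6 in pcYY2, 5.23-fold higher (log2 fold change 2.39 ± 0.14 (SE), adjusted p = 0.00107, edgeR). FPKM is the number of reads of a gene scaled to the length of the gene and to the reads counted in the sample (fragments per kilobase and megaread). Total counts ran from 15158360 to 29572882 reads, with the highest in pcYY2 replicate 2. The summed FPKM of the 6 colon epithelial markers (EPCAM, KRT8, KRT18, KRT19, CDH1 and CLDN7) ran from 304 to 317 in pcCon and from 396 to 431 in pcYY2. KRT19 (log2 fold change 0.60) and KRT8 (0.67) rose with pcYY2 and were the only 2 of the 6 called. CLDN7 went the other way, from 7.21 to 8.10 FPKM in pcCon and from 6.06 to 6.81 in pcYY2. One library of each group stood apart in erythroid markers. The summed level of HBA1 and HBB was 36.5 FPKM in pcCon replicate 1 and 58.0 in pcYY2 replicate 2, against 4.83 to 8.28 in the other 4 libraries. The 4 markers of leukocytes and macrophages (PTPRC, CD68, CD14, CD163) summed to 0.422 to 0.54 FPKM in pcCon and 0.73 to 1.01 in pcYY2. Most of each sum was CD68, with 0.339 to 0.451 FPKM in pcCon and 0.614 to 0.743 in pcYY2. PTPRC was highest in the same 2 libraries as HBA1 and HBB, at 0.0863 in pcCon replicate 1 and 0.244 in pcYY2 replicate 2. In the other 4 libraries PTPRC was at most 0.0342. The 2 fibroblast markers (COL1A1, COL3A1) summed to 1.92 to 2.18 and 2.16 to 2.68, and the 2 endothelial (PECAM1, VWF) and 3 liver markers (ALB, APOA1, TF) stayed at or under 0.157 in each library.

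With pcYY2, 3 of the 10 iron genes fell and none rose. FTL, the ferritin light chain, fell to 0.768 of its level in pcCon, TFRC, the transferrin receptor, to 0.891, and SLC39A8, a zinc, manganese and iron importer of the plasma membrane also called ZIP8, to 0.583. FTH1, the ferritin heavy chain, did not fall with FTL: it averaged 1.09 of its pcCon level, with an adjusted p of 0.215 by edgeR. Of the 10 genes, 9 had the mean FPKM of 1 over the 6 samples that the test required, and SLC40A1 had less. A gene was called at an adjusted p of 0.05 or less in edgeR's quasi-likelihood test over 12015 genes, which called 4.85% of the genes tested lower and 4.52% higher. The median log2 fold change of the 9 tested iron genes was -0.17, against 0.002 over all genes tested. At an unadjusted p under 0.05, 5 of the 9 were lower and none higher, against 14.5% and 14.4% of the genes tested. The study had already named FTL, SLC39A8 and SLC40A1 as iron genes that YY2 affects, to a lower extent than the cystine importer SLC7A11. The 10 genes were chosen with earlier results of these data known, so their counts and median are not independent of these data.

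**Figure D1:**
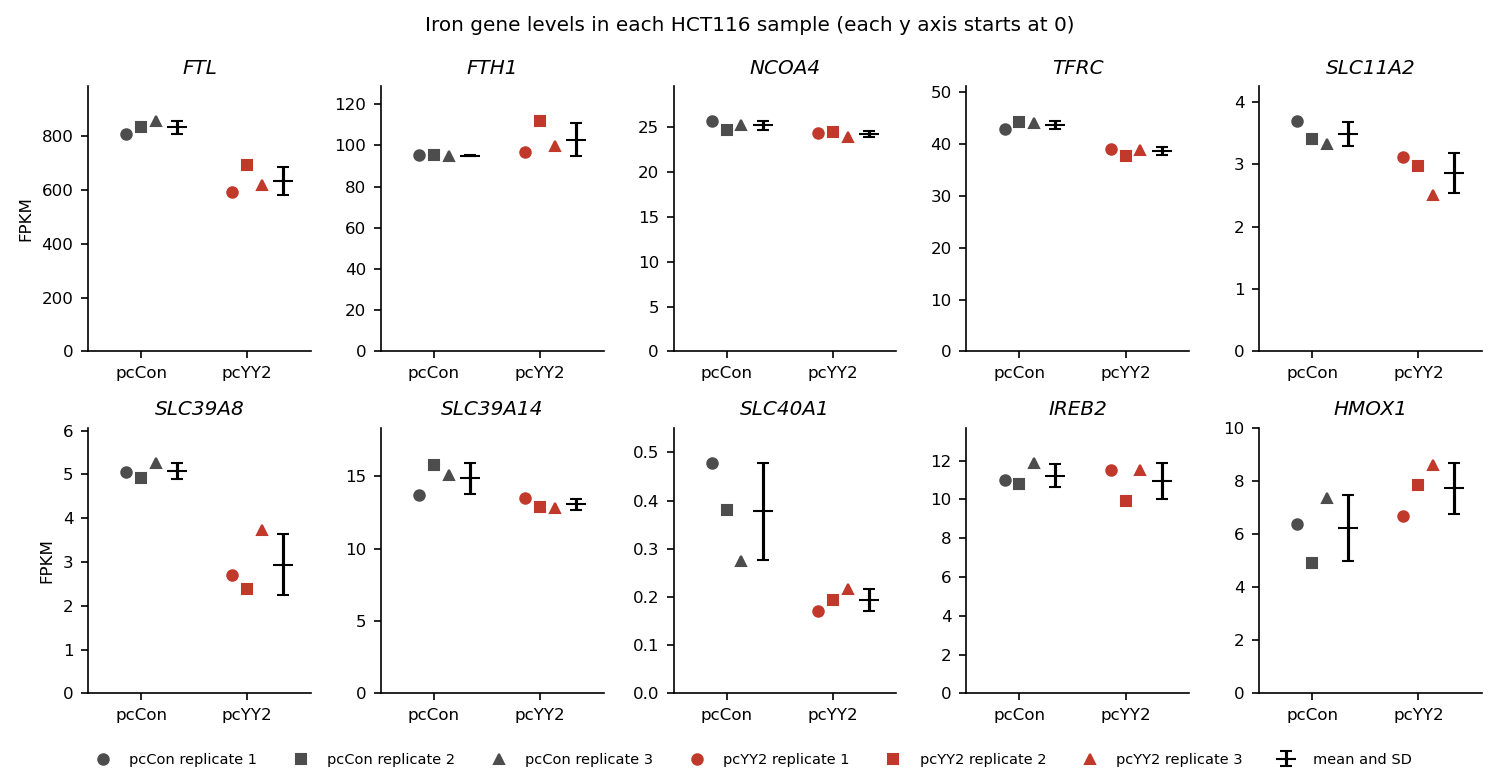
FPKM (y axis, a separate scale from 0 for each gene) of the 10 iron genes in the 3 pcCon and the 3 pcYY2 samples (x axis); each symbol is a sample, and the bar gives the mean and SD of the group. FTL, TFRC and SLC39A8 sit lower in the pcYY2 samples with no overlap, whereas the pcYY2 samples of FTH1 run from 96.7 to 112 FPKM, all above the pcCon samples.

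The ferritin chains parted. FTL, the chain that helps nucleate the iron core, had 808, 833 and 856 FPKM in pcCon replicates 1, 2 and 3 and 592, 691 and 617 in pcYY2 replicates 1, 2 and 3. All pcYY2 samples were below all pcCon samples, and the means were 832 ± 23.9 and 633 ± 51.4 (SD, n = 3). Its log2 fold change was -0.38 ± 0.06 (SE), with a 95% interval of -0.53 to -0.23 and an adjusted p of 0.0188 by edgeR. The call was lost without pcCon replicate 1, 2 or 3 or pcYY2 replicate 3, with adjusted p from 0.0531 to 0.0666 by edgeR and log2 fold changes from -0.40 to -0.36. In bulk RNA, fewer cells carrying a transcript and less of it per cell cannot be told apart, here and for the genes that follow.

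FTH1, the chain with the ferroxidase site that oxidizes ferrous iron, had 95.1, 95.1 and 94.8 FPKM in pcCon and 96.7, 112 and 99.6 in pcYY2. The pcCon samples lay within 1 FPKM of each other, and the pcYY2 samples were all above them but spread more widely. The log2 fold change was 0.13 (95% interval -0.01 to 0.27), so the test found no difference and left room for a small rise.

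Within each sample, FTL had 8.50, 8.77 and 9.03 times the FPKM of FTH1 in pcCon and 6.12, 6.18 and 6.20 times in pcYY2. The ratio was thus 8.76 ± 0.266 in pcCon and 6.17 ± 0.0401 in pcYY2 (SD, n = 3), and the log2 ratio was 0.51 lower with pcYY2 (log2 difference -0.51, two-sided exact permutation p = 0.1, which is the smallest p that 3 against 3 samples allow). The 3 pcYY2 samples differed among themselves in both chains, yet their ratios lay within 0.1 of each other. The size of the ratio depends on the gene lengths in the table, 1377 bases for FTL and 6097 for FTH1, which exceed the 871 and 1203 bases of the reference transcripts. In reads alone FTL had 1.98 ± 0.0601 times as many as FTH1 in pcCon and 1.39 ± 0.00905 times in pcYY2.

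**Figure D2:**
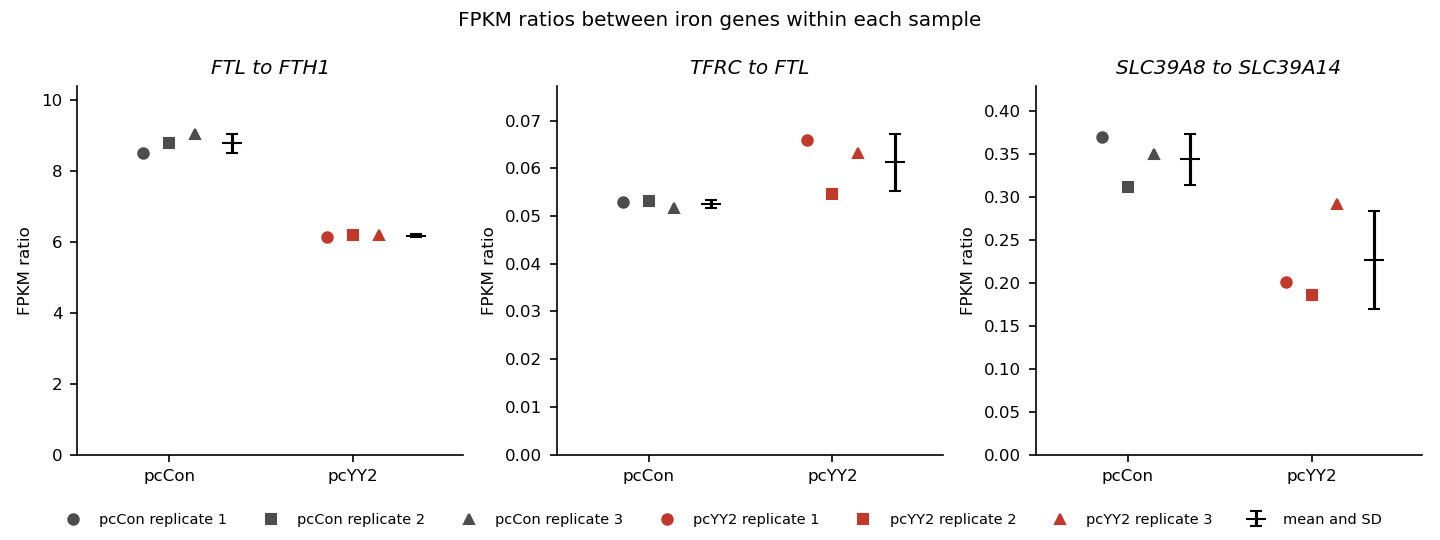
FPKM of one gene divided by that of another in the same sample (y axis, from 0) for FTL to FTH1, TFRC to FTL and SLC39A8 to SLC39A14 in pcCon and pcYY2 (x axis); symbols are samples and bars the mean and SD. The groups do not overlap in any of the 3 ratios, and the FTL to FTH1 ratios of pcYY2 form the tightest cluster, from 6.12 to 6.20.

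The library of pcYY2 with the most erythroid marker RNA, replicate 2, also had the highest FTL and FTH1 of its group. Without it the log2 fold change of FTL was -0.45 (adjusted p = 0.00933, edgeR) and that of FTH1 0.06. Without both libraries that stood apart, FTL was still lower, at -0.48 (adjusted p = 0.0362, edgeR). The FTL to FTH1 log2 difference was then -0.53. The part of erythroid RNA in the single values of replicate 2 was not tested.

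Reads of the ferritin genes can also be placed on their processed pseudogenes, which are near copies of the mRNA. The table listed 16 rows named as FTL pseudogenes and 25 as FTH1 pseudogenes, of which 1 and 6 averaged at least 10 reads a sample. FTLP3 had 42.1 ± 2.23 FPKM in pcCon and 30.0 ± 2.27 in pcYY2 (SD, n = 3), lower by -0.48 on the log2 scale (adjusted p = 0.0256, edgeR), the same direction as FTL. None of the 6 FTH1 pseudogenes was called: FTH1P2, the most abundant, had 389 ± 11.7 and 412 ± 37.8 FPKM, and the log2 fold changes of FTH1P2, FTH1P7, FTH1P8, FTH1P10, FTH1P11 and FTH1P23 ran from -0.11 to 0.24. FTL pseudogene rows took 1.57% to 2.13% of the reads of FTL and its copies, and FTH1 pseudogene rows 32.5% to 34.1% of those of FTH1 and its copies, which for FTH1 is 48.1% to 51.8% of its own reads, so the level of FTH1 is uncertain to that extent. With parent and copies summed, the log2 fold change was -0.38 for FTL (adjusted p = 0.0169) and 0.11 for FTH1 (adjusted p = 0.25, both edgeR).

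NCOA4, the receptor that delivers ferritin to autophagosomes so that its iron is released, was nearly level. It had 25.7, 24.7 and 25.3 FPKM in pcCon and 24.4, 24.5 and 23.9 in pcYY2. The pcYY2 samples were lower without overlap in FPKM, though not after TMM scaling, by a log2 fold change of -0.04 (95% interval -0.14 to 0.06, adjusted p = 0.569, edgeR).

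Among the uptake genes, TFRC, which binds transferrin and brings its iron in by endocytosis, had 42.8, 44.2 and 44.1 FPKM in pcCon and 39.1, 37.7 and 38.9 in pcYY2. The groups did not overlap and both were tight, at 43.7 ± 0.83 and 38.6 ± 0.744 FPKM (SD, n = 3). The log2 fold change was -0.17 ± 0.03 (SE; 95% interval -0.25 to -0.08, adjusted p = 0.033, edgeR). This call was lost when any 1 library was left out, with adjusted p from 0.0537 to 0.118 by edgeR and log2 fold changes from -0.19 to -0.15. It was lost too when weakly expressed genes were kept (0.0669 at a mean FPKM of 0.1 and 0.0896 with no filter). Without both libraries that stood apart in erythroid markers, the log2 fold change was -0.17 (adjusted p = 0.103, edgeR).

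FTL and TFRC carry the hairpin at opposite ends of the mRNA, and both mRNAs fell. TFRC fell by less than FTL: the TFRC to FTL ratio of FPKM was 0.0529, 0.0531 and 0.0516 in pcCon and 0.0660, 0.0546 and 0.0631 in pcYY2. The log2 ratio was 0.22 higher with pcYY2 and the groups did not overlap (two-sided exact permutation p = 0.1, the smallest possible). Of the genes whose reference transcript held a hairpin in the 5′ UTR, 8 were tested and 2 were called, both lower, ENC1 and FTL. Of those with one in the 3′ UTR, 80 were tested, 4 were called higher and 6 lower, TFRC among them. That is 25% and 12.5% of the tested genes with a hairpin, against 9.37% of all genes tested, and the first share rests on only 8 genes. FTL, FTH1 and TFRC are themselves in these counts, so the shares partly repeat calls already given. These genes were counted after the members' values were seen.

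Of the 10 genes, SLC39A8 showed the largest fall among the 9 with a mean FPKM of at least 1. It had 5.06, 4.92 and 5.27 FPKM in pcCon and 2.71, 2.39 and 3.73 in pcYY2, from 609 to 702 and from 316 to 539 reads. No pcYY2 sample reached a pcCon sample, though replicate 3 stood nearer to them than the other two. The means were 5.08 ± 0.178 and 2.94 ± 0.697 FPKM (SD, n = 3), and the log2 fold change was -0.78 ± 0.16 (SE; 95% interval -1.15 to -0.40, adjusted p = 0.0316, edgeR). The call held without pcYY2 replicate 3 (-0.99, adjusted p = 0.0139, edgeR) and was lost on leaving out any other library, with adjusted p from 0.0676 to 0.0919 by edgeR and log2 fold changes from -0.80 to -0.65. Without both libraries that stood apart in erythroid markers it was -0.65 (adjusted p = 0.146, edgeR).

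SLC39A14, or ZIP14, is the closest relative of SLC39A8 among the zinc transporters and likewise carries non-transferrin-bound iron. It had 13.7, 15.8 and 15.1 FPKM in pcCon and 13.5, 12.9 and 12.8 in pcYY2. The groups did not overlap, but the highest pcYY2 sample was close to the lowest pcCon sample, and the log2 fold change of -0.18 was not called (95% interval -0.32 to -0.03, adjusted p = 0.122, edgeR). The SLC39A8 to SLC39A14 ratio was 0.369, 0.311 and 0.350 in pcCon and 0.201, 0.186 and 0.292 in pcYY2, a log2 difference of -0.63 (two-sided exact permutation p = 0.1, the smallest possible). Of 9 tested members of the wider SLC39 family other than these, 1 was called, which is 11.1%, near the 9.37% of all genes tested. It was SLC39A7, which moves zinc out of the endoplasmic reticulum and rose from 33.2 ± 1.79 to 44.7 ± 1.06 FPKM (log2 fold change 0.44, adjusted p = 0.0077, edgeR).

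SLC11A2, or DMT1, passes ferrous iron across the plasma membrane and out of endosomes. It had 3.70, 3.41 and 3.33 FPKM in pcCon and 3.12, 2.97 and 2.50 in pcYY2. The pcYY2 samples were lower without overlap, but the log2 fold change of -0.27 was not called (95% interval -0.49 to -0.05, adjusted p = 0.114, edgeR).

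SLC40A1, ferroportin, the only iron exporter known in vertebrate cells, was barely detected. It had 50, 40 and 24 reads in pcCon and 15, 33 and 23 in pcYY2, or 0.477, 0.381 and 0.275 against 0.170, 0.194 and 0.217 FPKM. Per FPKM the pcYY2 samples were lower and did not overlap pcCon. It was tested only with the filter lowered to a mean FPKM of 0.1, where 2.19% of 18877 genes were called lower, and it was not called (log2 fold change -0.92, 95% interval -1.55 to -0.29, adjusted p = 0.0936, edgeR). The study names SLC40A1 among the genes that YY2 affects, and its RNA-Seq analysis used a different test, Cuffdiff. It also reports qRT-PCR of the ferroptosis-related genes from its RNA-Seq in HCT116 cells overexpressing YY2. Why SLC40A1 was not called here was not tested.

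IREB2, or IRP2, is one of the proteins that bind the hairpins shown above. It had 11.0, 10.8 and 11.9 FPKM in pcCon and 11.5, 9.90 and 11.5 in pcYY2. The groups overlapped, with a log2 fold change of -0.02 (95% interval -0.20 to 0.15, adjusted p = 0.865, edgeR). HMOX1, heme oxygenase 1, which frees iron from heme and is induced by oxidative stress and heme, had 6.39, 4.94 and 7.39 FPKM in pcCon and 6.70, 7.88 and 8.63 in pcYY2. Its groups overlapped too, and the log2 fold change of 0.33 had an interval from -0.06 to 0.72 (adjusted p = 0.239, edgeR).

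Counted over all 10 genes, the FPKM of the groups did not overlap for 8, and IREB2 and HMOX1 were the exceptions. Such separation was common in these samples, at 35.8% of the genes tested.

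**Figure D3:**
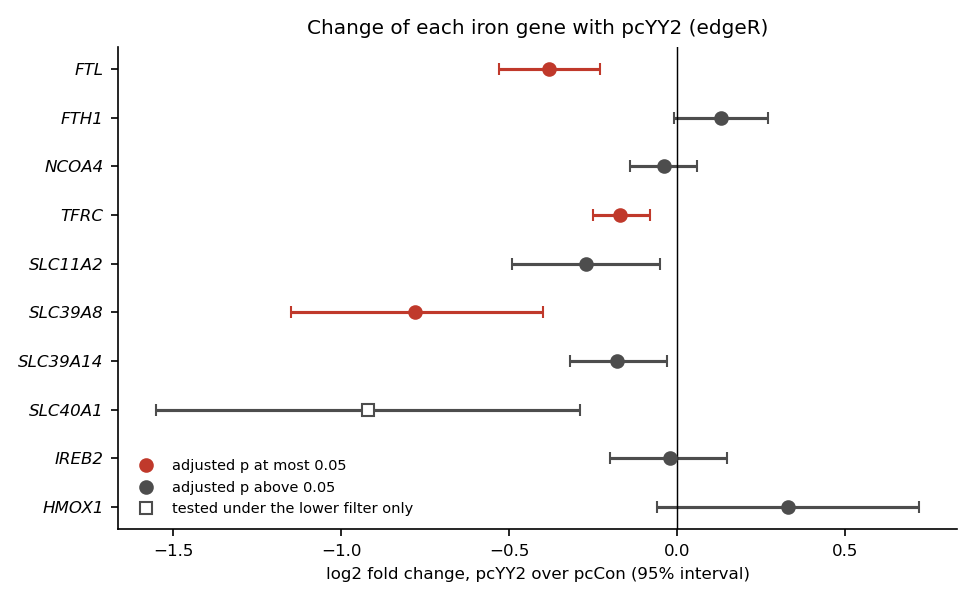
Log2 fold change of pcYY2 over pcCon (x axis) for each iron gene (y axis) with its 95% interval from edgeR; red marks an adjusted p of at most 0.05 and the open square SLC40A1, tested only with the lower filter. FTL, TFRC and SLC39A8 lie below 0 and are the genes called, and the interval of FTH1 runs from -0.01 to 0.27.

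In order of FPKM, pcCon cells had FTL, FTH1, TFRC, NCOA4, SLC39A14, IREB2, HMOX1, SLC39A8, SLC11A2 and SLC40A1. Only HMOX1 and SLC39A8 overlapped among neighbours. The order was the same in pcYY2, where the fall of SLC39A8 left HMOX1 clear of it and brought it to overlap with SLC11A2. FTL held place 31 of the whole table by mean FPKM and FTH1 place 212. The order rests on the lengths behind FPKM, which exceeded the reference transcript for all 10 genes, most of all in bases for SLC11A2 (17797 against 4132). With reads scaled to the reference transcripts instead, places 1 to 6 and 10 were the same. SLC11A2 (15.0 ± 0.833 in pcCon) then came before HMOX1 (14.7 ± 2.9), with which it overlapped, and SLC39A8 (12.3 ± 0.43), and in pcYY2 it stood between HMOX1 and SLC39A8.

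Beyond these 10 genes, 63 tested genes of 7 lists of iron, heme and iron-sulfur biology showed few calls, 1 higher and 2 lower, which is 4.76% of them, against 9.37% of all genes tested in either direction. In the list of chaperones and ferritin turnover, PCBP1, a chaperone that loads iron into ferritin, rose from 156 ± 2.27 to 176 ± 6.84 FPKM (SD, n = 3; log2 fold change 0.19, adjusted p = 0.0466, edgeR). It was the only one called of 5 tested, and it was no longer called on leaving out any 1 library (adjusted p from 0.0607 to 0.134, edgeR). The PCBP1 call was also lost with upper-quartile scaling (0.066) and with no scaling beyond the library total (0.0508). Further losses came with a filter at a mean FPKM of 0.1 (0.0524), no filter (0.0629) and a replicate block (0.105, all edgeR). Of 3 tested genes of the export and hepcidin axis, BMP6, the ligand that induces hepcidin in the liver, fell from 1.41 ± 0.0896 to 0.717 ± 0.113 FPKM (log2 fold change -0.95, adjusted p = 0.0237, edgeR). BMP6 lay at the edge of the filter and passed it only through pcCon, with 1.31 to 1.46 FPKM there and 0.587 to 0.791 in pcYY2. It was also called with a filter at a mean FPKM of 0.1 (adjusted p = 0.0376) and with no filter (0.0359, both edgeR). The BMP6 call was lost without pcCon replicate 1, 2 or 3 or pcYY2 replicate 3 (adjusted p from 0.0625 to 0.082, edgeR) and without both libraries that stood apart (0.118). Of 6 tested regulators and other mRNAs known for an iron-responsive element, EPAS1, the hypoxia-inducible factor HIF-2α, fell from 3.05 ± 0.814 to 1.59 ± 0.147 FPKM (log2 fold change -0.93, adjusted p = 0.0376, edgeR). The EPAS1 call held without pcCon replicate 1 (0.0122) and was lost on leaving out any other library (adjusted p from 0.0719 to 0.112, edgeR), and limma gave 0.0569.

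None of the 8 other uptake and transport genes, the 7 heme synthesis genes, the 7 genes of heme breakdown and transport or the 27 iron-sulfur cluster assembly genes was called. Their median log2 fold changes were -0.11, 0.00, -0.21 and 0.08. Over all 7 lists 19 genes had an unadjusted p under 0.05, 8 of them higher and 11 lower, out of 63, against 28.9% of all genes tested.

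**Figure D4:**
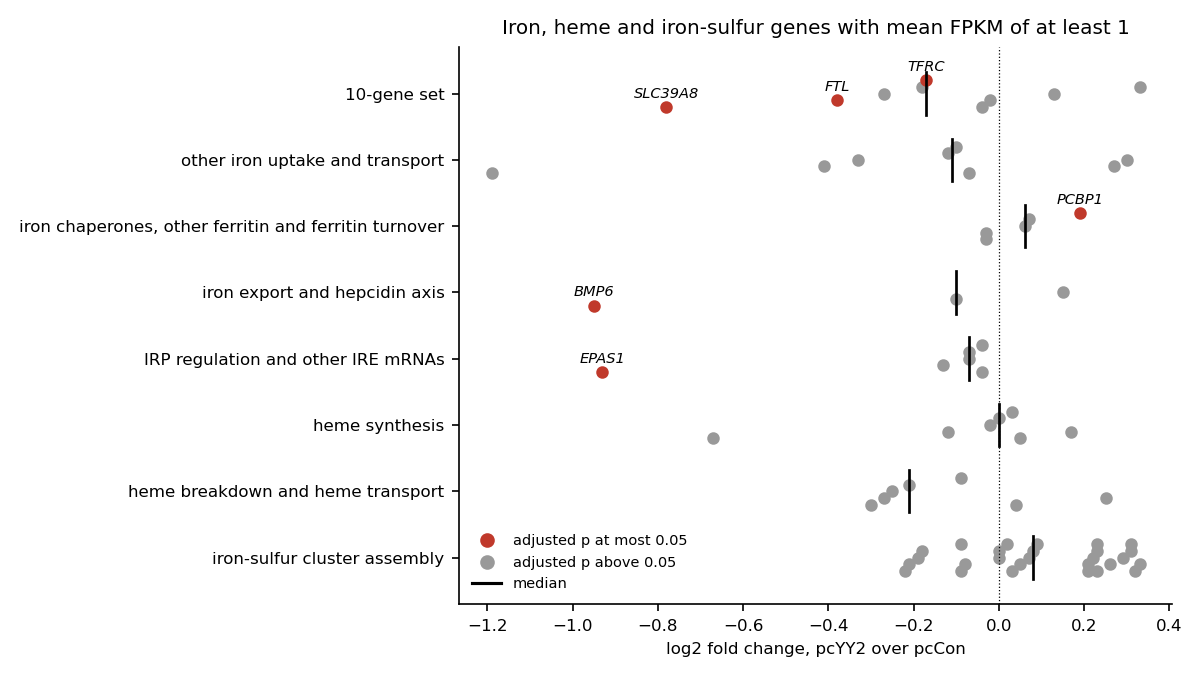
Log2 fold change of pcYY2 over pcCon (x axis) for the tested genes of the 10-gene set and of 7 further iron, heme and iron-sulfur lists (y axis); each point is a gene, red with its name where the adjusted p was at most 0.05, and the black line is the median of the list. Outside the 10-gene set, BMP6, EPAS1 and PCBP1 are the genes called, and the 27 iron-sulfur genes lie between -0.22 and 0.33.

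FTL, FTH1, SLC40A1 and HMOX1 are also targets of NRF2 and BACH1, an activator and a repressor of antioxidant genes. Of 14 other tested genes of that pathway, 2 were called higher and 4 lower, 42.9% of them, against 9.37% of all genes tested. SLC7A11, the cystine importer that the study centred on, fell from 19.9 ± 0.296 to 9.55 ± 0.909 FPKM (log2 fold change -1.05, adjusted p = 0.0014, edgeR). NQO1, a quinone reductase, fell from 73.6 ± 2.82 to 50.4 ± 2.91 FPKM (log2 fold change -0.53, adjusted p = 0.00557, edgeR). ABCC2, an exporter of glutathione conjugates, rose from 57.2 ± 1.32 to 74.2 ± 1.56 FPKM (log2 fold change 0.39, adjusted p = 0.00376, edgeR). The genes called thus moved both ways, and FTL and HMOX1, both targets, differed in sign, with HMOX1 not called.

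The promoters were searched for the YY consensus CGCCATNTT on both strands, in RefSeq windows of GRCh38.p14 that span the gene start. None of the windows of FTL, TFRC, SLC40A1, SLC39A8, SLC11A2, NCOA4 and IREB2 held it, against 3.19% of 35097 windows. FTH1, SLC39A14 and HMOX1 were not searched. The windows are short, such as chr19:48965059-48965358 for FTL. The site that the study located in the SLC7A11 promoter lies farther upstream than such a window reaches. With so small a share over all windows, finding none in a few windows is common. No match says only that these letters are not in this window.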

How the data were processed

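Polyadenylated RNA of HCT116 cells given pcCon or pcYY2 (3 samples each) was sequenced. According to the methods, reads were filtered, mapped to GRCh38 with Tophat and given FPKM values with Cufflinks. The submitters' processing notes also name Bowtie2 and HTSeq. The authors deposited counts, whole numbers of reads per gene, and FPKM, which on the values equalled count over gene length and total count. Strand use in counting is not given in the sources used here.

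Genes averaging an FPKM of 1 or more were tested on the counts with edgeR 4.0.16 (quasi-likelihood, TMM, all 6 samples, Benjamini-Hochberg adjustment, threshold 0.05) in R 4.3.3. Ratios used log2 FPKM and exact permutation (scipy 1.17.1). DESeq2 1.42.0, limma 3.58.1 on log2(FPKM + 1), other scalings, other filters, a replicate block and leaving out libraries were alternatives. Scripts were tested on simulated data. Total counts ran from 15158360 to 29572882 reads, and the biological coefficient of variation was 0.133.

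The members and the gene lists were chosen with earlier results of these data known. The text names all members, YY2, markers, pseudogenes averaging at least 10 reads a sample and, for each list, at most the 3 called genes with the smallest p. A further erythroid marker is not reported here. ENC1 was named after its values were seen. The fit with a replicate block served only as an alternative, since samples of the same number did not deviate together. Coordinates are 1-based on GRCh38. Reads shared between overlapping genes could not be told apart; In GENCODE 44, SLC39A8 overlaps 2 genes on its own strand (ENSG00000248161, with 11 to 33 reads a sample, and RN7SL728P, with 0), TFRC 3 genes on the other strand, FTH1 BEST1 on the other strand (0 to 4 reads), and SLC39A14, SLC11A2, NCOA4 and IREB2 1 gene each. FTL, SLC40A1 and HMOX1 overlap none.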

Additional observations from a re-analysis of the deposited data

How the results depend on the processing

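FTL, TFRC and SLC39A8 were lower in each of 15 alternatives. They were called in 10 (FTL), 5 (TFRC) and 8 (SLC39A8) of these. No other tested member was called in any of the 15, and IREB2 changed sign in 3. Leaving out 1 library gave 0 to 1 members lower and 0 higher, 138 to 402 of all genes higher and 147 to 419 lower, and 0 to 1 other iron genes higher and 0 to 2 lower. FTL lost its call without each pcCon library (adjusted p from 0.0531 to 0.0663, edgeR) and without pcYY2 replicate 3 (0.0666). Without pcCon replicate 1 and pcYY2 replicate 2, an alternative chosen after seeing the data, 29 of all genes were called higher and 54 lower, 1 member (FTL) lower, and 0 other iron genes higher and 1 lower. Fewer samples were then compared.

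Samples with the same number did not deviate together (correlations -0.0274, -0.0318 and -0.0175), so the numbers gave no pairing. With a replicate block, 51 genes were called higher and 50 lower, 0 members lower, and 0 other iron genes higher and 0 lower. Blocked adjusted p-values were 0.0574 (FTL), 0.0628 (SLC39A8) and 0.104 (TFRC, all edgeR). A replicate block cannot change the log2 differences of the ratios, which were -0.507 for FTL to FTH1, 0.217 for TFRC to FTL and -0.628 for SLC39A8 to SLC39A14. An exact sign-flip test over the blocks gave p = 0.25 for each. Each ratio kept its sign in the other settings run. The groups do not overlap in these ratios, so leaving out libraries could not have reversed a sign. Other iron genes called higher were 0 with upper-quartile scaling, with no scaling beyond the library total, with a filter at a mean FPKM of 0.1 and with no filter; the cause was not tested. SLC40A1 had the fewest reads, 15 to 50 a sample.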
